A study of Mus musculus with 2 samples.

Results

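In the loop list of mouse embryonic stem cells, 440 of 2410 windows of 1 Mb on chromosomes 1 to 19 were overlapped by no loop. The autosomes were cut from position 0 of the mm10 genome build up to the last gene record of each chromosome. A window was kept when no loop interval, from the start of the upstream anchor to the end of the downstream anchor, reached into it, and when at least 1 gene record of any kind had a place in it. These 440 windows are called loop-free here, and they were 18.3% of the windows with a gene record. The windows were thus chosen by the positions of the loops themselves, so their number and places are descriptions and were not tested.

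The cells were of V6.5, a male mouse embryonic stem cell (mESC) line grown on gelatin-coated dishes, and they received siGLO, a transfection control reagent, at 50 nM with the lipid DharmaFECT1, to be collected 48 hours later. This group, siControl, had 2 samples and no other group was analysed here, so every cell described carried the control transfection. Contacts were measured by Micro-C with the Dovetail kit, in which chromatin is fixed with DSG and formaldehyde, cut with micrococcal nuclease and ligated by proximity. The data were 1 list of 4982 loops for the group, 4858 of them on the autosomes, with no value per sample, so no spread between replicates could be given and the depth is unknown.

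A chromatin loop appears in a contact map when cohesin, a ring complex that extrudes DNA, is halted at a pair of sites, most often sites bound by the zinc finger protein CTCF. Loops help to bring enhancers to promoters and to keep neighbouring genes apart. Large families of genes for smell, pheromone sensing, the placenta or the liver arose by tandem duplication, lie side by side in the genome and serve specialised cells.

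The promoters shown here come from families with many genes in loop-free windows and from 1 pluripotency gene, and they let a reader see how far such promoters differ in base composition, CpG content and likeness. Each is 300 bases of RefSeq sequence of GRCm38.p6, which is the assembly behind mm10. It runs from 250 bases before the start of the gene to 50 bases from it on, 5′ to 3′ on the gene's strand. The start is that of the RefSeq record. In Olfr883, Vmn1r91 and Vmn1r124 the bases from it on open with ATG. Their records may thus begin at the coding sequence, so the 300 bases may miss the promoter. Capitals mark CpG dinucleotides and the letters TATAAA of a TATA box where they lie between 50 and 6 bases before the start. Olfr883 (chr9:38025558-38025857, plus strand) is the first member of the largest loop-free cluster of olfactory receptors. Vmn1r91 (chr7:20100908-20101207, plus strand) heads the largest loop-free cluster of vomeronasal type 1 receptors, and Vmn1r124 (chr7:21260568-21260867, minus strand) is the promoter closest to it. Gm2888 (chr14:3029668-3029967, plus strand) belongs to a cluster of predicted genes, and Zfp640 (chr13:66680754-66681053, minus strand) to a cluster of zinc finger genes. Scgb1b2 (chr7:31291767-31292066, minus strand), a secretoglobin gene, is the first of its cluster with TATAAA. Pou5f1 (chr17:35505782-35506081, plus strand), which encodes the pluripotency factor Oct4, is shown because its window was loop-free.
Olfr883: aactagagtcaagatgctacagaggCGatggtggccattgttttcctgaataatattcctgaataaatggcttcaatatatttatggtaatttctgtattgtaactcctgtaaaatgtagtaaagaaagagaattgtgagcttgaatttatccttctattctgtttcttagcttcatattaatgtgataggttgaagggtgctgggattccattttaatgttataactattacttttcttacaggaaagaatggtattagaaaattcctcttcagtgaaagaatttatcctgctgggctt
Vmn1r91: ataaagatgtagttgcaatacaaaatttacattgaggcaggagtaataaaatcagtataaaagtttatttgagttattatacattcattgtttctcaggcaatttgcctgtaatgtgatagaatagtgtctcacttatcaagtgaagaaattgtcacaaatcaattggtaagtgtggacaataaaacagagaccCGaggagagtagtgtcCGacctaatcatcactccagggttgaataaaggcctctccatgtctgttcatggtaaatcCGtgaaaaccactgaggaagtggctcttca
Vmn1r124: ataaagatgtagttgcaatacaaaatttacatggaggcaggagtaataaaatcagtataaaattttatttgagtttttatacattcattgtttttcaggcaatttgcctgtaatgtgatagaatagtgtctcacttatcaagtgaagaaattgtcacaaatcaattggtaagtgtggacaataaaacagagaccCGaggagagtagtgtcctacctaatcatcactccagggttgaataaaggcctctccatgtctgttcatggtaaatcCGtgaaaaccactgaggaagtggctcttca
Gm2888: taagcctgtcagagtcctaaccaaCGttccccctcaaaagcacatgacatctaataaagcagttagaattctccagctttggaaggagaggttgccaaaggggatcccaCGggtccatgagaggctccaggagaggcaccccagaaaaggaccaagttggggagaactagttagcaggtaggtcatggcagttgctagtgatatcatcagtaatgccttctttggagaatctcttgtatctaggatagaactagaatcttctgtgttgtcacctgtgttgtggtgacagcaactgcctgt
Zfp640: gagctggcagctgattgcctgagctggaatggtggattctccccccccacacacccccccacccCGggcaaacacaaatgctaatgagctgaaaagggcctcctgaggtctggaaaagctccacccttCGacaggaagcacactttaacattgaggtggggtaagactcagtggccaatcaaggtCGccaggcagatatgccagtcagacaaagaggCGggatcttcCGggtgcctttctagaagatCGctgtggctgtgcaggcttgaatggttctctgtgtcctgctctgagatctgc
Scgb1b2: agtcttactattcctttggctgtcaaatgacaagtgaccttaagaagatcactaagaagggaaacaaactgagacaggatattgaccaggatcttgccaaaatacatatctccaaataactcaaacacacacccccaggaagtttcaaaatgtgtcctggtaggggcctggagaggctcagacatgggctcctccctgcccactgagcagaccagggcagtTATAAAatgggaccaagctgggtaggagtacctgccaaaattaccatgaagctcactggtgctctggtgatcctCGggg
Pou5f1: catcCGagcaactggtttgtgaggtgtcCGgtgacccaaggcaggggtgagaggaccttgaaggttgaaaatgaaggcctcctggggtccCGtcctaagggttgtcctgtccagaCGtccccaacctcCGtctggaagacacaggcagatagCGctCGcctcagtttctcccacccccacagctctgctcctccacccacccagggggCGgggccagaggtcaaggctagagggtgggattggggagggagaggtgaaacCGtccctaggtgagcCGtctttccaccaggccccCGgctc

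The promoter of Olfr883 held 1 CpG in 300 bases and had a GC content of 33.0%. Vmn1r91 held 3 CpG and Vmn1r124 held 2, and their promoters differed at 5 of 300 positions, so they were 98.3% identical although the genes lie on opposite strands more than a window apart. Gm2888 set against Gm10410, the promoter of its cluster closest to it position by position, differed at 209 of 300 positions (30.3% identical). A comparison position by position misses copies that are shifted by some bases. Of the stretches of 25 bases in the Gm2888 promoter, 97.8% also occurred in promoters of other genes. Pou5f1 had the most CpG of the promoters shown, 11, at a GC content of 62.7%. Among the promoters shown, that of Scgb1b2 alone held TATAAA in that stretch.

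The longest loop-free stretch also held the microRNA cluster of miR-17 to miR-92a, known for promoting proliferation in embryonic stem cells and tumours. Of its 11 mature forms, 6 from the arms best known as guides are shown 5′ to 3′ with the seed, bases 2 to 8, in capitals, ordered by shared seed.
miR-17-5p: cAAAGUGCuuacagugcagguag
miR-20a-5p: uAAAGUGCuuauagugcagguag
miR-18a-5p: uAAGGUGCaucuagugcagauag
miR-19a-3p: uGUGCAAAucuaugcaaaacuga
miR-19b-3p: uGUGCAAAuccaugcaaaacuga
miR-92a-3p: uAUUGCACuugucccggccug
The hairpins lay on the plus strand of chromosome 14, from mature miR-17-5p at chr14:115043684-115043706 to miR-92a-3p at chr14:115044476-115044496. miR-17-5p shared its seed with miR-20a-5p, and miR-19a-3p shared its seed with miR-19b-3p.

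The loop-free windows were poor in genes for the most part, with a minority that were very rich. Protein-coding records were put in the window that holds their midpoint. The median loop-free window held 1 protein-coding gene (quartiles 0 and 6), and the median window with loops held 6 (quartiles 3 and 12). The means, 6.15 and 9.06, lay closer together than the medians. No protein-coding gene lay in 151 loop-free windows (34.3%), against 116 windows with loops (5.89%). Another 166 loop-free windows (37.7%) held 1 to 4 genes, and 74 (16.8%) held 5 to 19. At the upper end, 49 loop-free windows held 20 or more genes, which was 11.1% of them and 11.1% of the windows with loops. The loop-free windows therefore differed from the others by an excess of deserts and a deficit of windows with intermediate gene number, with an equal share of windows rich in genes.

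**Figure D1:**
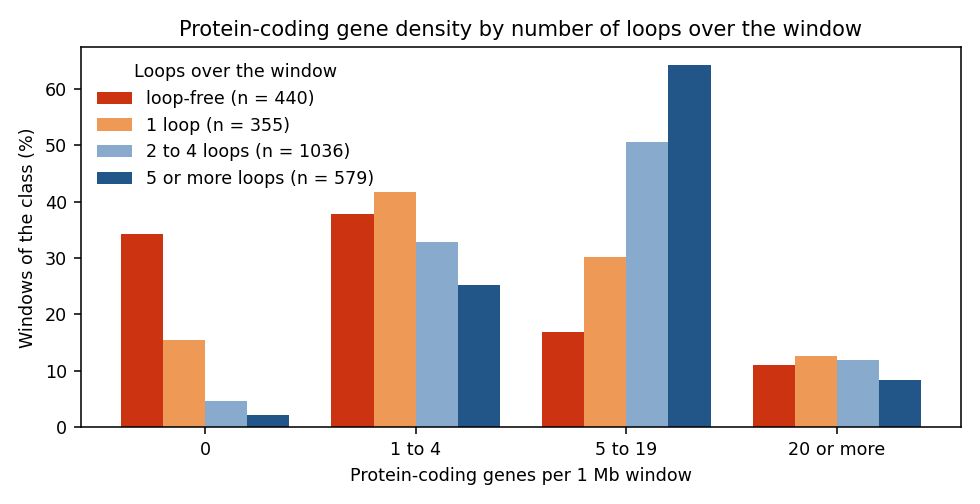
Share of 1 Mb windows (y axis, percent of the class) by the number of protein-coding genes with their midpoint in the window (x axis), for windows overlapped by 0, 1, 2 to 4, or 5 and more loops. Windows without a gene made up 34.3% of the loop-free class and 2.25% of the class with 5 or more loops, whereas windows of 20 or more genes ranged only from 8.46% to 12.7%.

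The median number of protein-coding genes rose in steps with the number of loops, whereas the mean did not rise at the last step. The mean was 9.43 with 2 to 4 loops and 9.26 with 5 or more. The median was 3 genes in the 355 windows with 1 loop, 6 in the 1036 windows with 2 to 4 loops and 7 in the 579 windows with 5 or more. Counting records of every kind, the median loop-free window held 7 (quartiles 4 and 18.25), and the median window with loops held 17 (quartiles 10 and 26). Windows are neighbours on a chromosome and are not replicates, so these medians carry no test.

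The membership rule is sharp, and many windows lay close to it. Just inside it, 34 loop-free windows had the end of a loop within 50 kb of their border. The distance from a loop-free window to the nearest loop had a median of 522.5 kb, with quartiles at 200 and 1162.5 kb. Just outside it, 24 of the 355 windows with 1 loop were overlapped by 50 kb or less of that loop, the least by 10 kb. In another 48 the whole window lay inside the loop, and 54 windows with loops held no anchor. The loop-free windows were 39.2% of the sequence that no loop covered, since the loops together covered 1279 Mb of 2402 Mb (53.2%).

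Loop-free windows were spread unevenly over the chromosomes. They were 38 of 122 windows on chromosome 14 (31.1%), 36 of 118 on chromosome 12 (30.5%), 28 of 92 on chromosome 17 (30.4%) and 40 of 143 on chromosome 7 (28%). The lowest shares were on chromosome 13, with 9 of 118 (7.63%), and chromosome 11, with 9 of 119 (7.56%). What the windows held differed too. On chromosomes 14 and 12 the median loop-free window held 1 protein-coding gene, whereas on chromosome 7 it held 11.5. Chromosome 7 alone gave 699 of the 2705 protein-coding genes in loop-free windows, and chromosome 17 gave another 342.

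**Figure D2:**
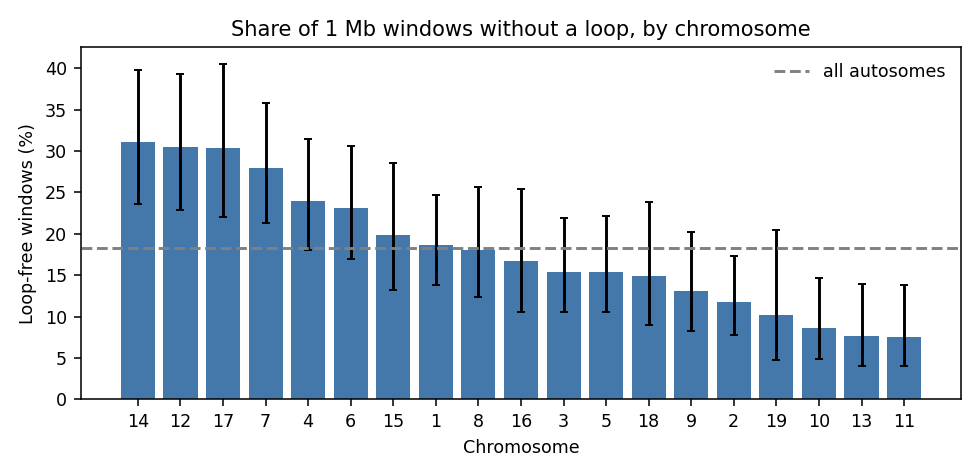
Share of 1 Mb windows with a gene record that no loop overlapped (y axis, percent) on each autosome (x axis, in order of the share); bars are shares, lines are Wilson 95% intervals that count windows as independent, and the dashed line is the share over all autosomes, 18.3%. Chromosome 14 stood at 31.1% and chromosome 11 at 7.56%.

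Consecutive loop-free windows formed 206 runs, of which 105 were single windows. Runs of 3 or more windows held 247 of the 440 windows. The longest run, 12 windows at chr14:106000001-118000000, lay in a gap of 12275 kb between loops and held 6 protein-coding genes among 88 records. They were Slitrk1, Slitrk5 and Slitrk6, whose products are synaptic adhesion proteins, Gpc5 and Gpc6, which encode glypicans (heparan sulfate proteoglycans of the cell surface), and Trim52. The 4 loop-free windows with the greatest distance to a loop lay in this run, led by chr14:112000001-113000000, which was 5200 kb from the nearest loop and held no protein-coding gene.

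The next run, 9 windows at chr7:7000001-16000000, was of the opposite kind, with 109 protein-coding genes among 351 records. It held vomeronasal receptors of both types, zinc finger genes, the Zscan4 genes of the 2-cell embryo, the Sult2a sulfotransferases, the Obox homeobox genes, and Trim28, which encodes a corepressor of retroviral elements. Its window chr7:11000001-12000000, 4060 kb from the nearest loop, was the fifth most distant and held Zscan4c, Zscan4d, Zscan4f and 5 Vmn1r genes. The runs of 8 windows were again poor in genes. The run at chr14:81000001-89000000 held 4, the non-clustered protocadherins Pcdh17 and Pcdh20, the formin gene Diaph3 and Tdrd3. The run at chr8:96000001-104000000 held 2, the cadherin genes Cdh8 and Cdh11. Of the runs of 7 windows, chr7:30000001-37000000 held 128 protein-coding genes, and chr5:55000001-62000000 held Pcdh7 and G6pd2 alone.

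**Figure D3:**
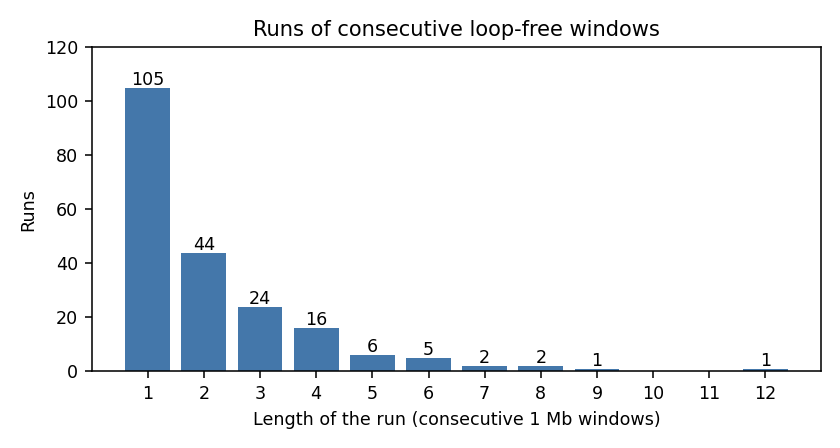
Number of runs (y axis) by their length in consecutive loop-free windows of 1 Mb (x axis), with the number of runs above each bar. Of 206 runs, 105 were single windows, and the longest had 12 windows.

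Among protein-coding genes, 2705 of 20558 (13.2%) had their midpoint in a loop-free window, and that share is the background for the families. The share was higher for pseudogenes, 1917 of 8797 (21.8%). It was lower for long noncoding RNA genes, 1251 of 12322 (10.2%), and for microRNA genes, 118 of 1136 (10.4%). Over records of every kind it was 14.5%. Sequence outside loops was far more common than loop-free windows, and 11281 protein-coding genes (54.9%) lay outside every loop interval.

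The receptors of smell and pheromones were the largest group of named families. Olfactory receptors and both types of vomeronasal receptors together had 475 of their 1452 genes in loop-free windows. They made up 17.6% of the protein-coding genes there and 7.06% of all autosomal protein-coding genes. Members of a family share clusters and are not independent, so their counts are given beside the background without an interval.

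Vomeronasal type 2 receptors (Vmn2r), pheromone receptors of the basal vomeronasal organ, had 86 of 121 genes in loop-free windows (71.1%). These lay in 17 windows of 5 runs, and the largest cluster held 28 genes at chr7:7212996-12733320, beginning with Vmn2r29, Vmn2r30, Vmn2r31, Vmn2r32 and Vmn2r33. Without chromosome 7, 52.2% of the Vmn2r genes were in loop-free windows. Vomeronasal type 1 receptors (Vmn1r), which serve the apical layer of that organ, had 104 of 228 (45.6%). Their largest cluster, 65 genes at chr7:20101158-22984673, began with Vmn1r91, Vmn1r240, Vmn1r93, Vmn1r94 and Vmn1r95. Without chromosome 7 the Vmn1r share was 13.5%, so the count rested on clusters of that chromosome.

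Olfactory receptors (Olfr), the largest gene family of the mouse, had 285 of 1103 genes in loop-free windows (25.8%), in 13 windows. The largest cluster, 79 genes at chr9:38025808-39994747, began with Olfr883, Olfr884, Olfr885, Olfr887 and Olfr888, and its windows held almost nothing else. In chr9:38000001-39000000, 43 of 44 protein-coding genes were olfactory receptors, and in chr9:39000001-40000000, 36 of 37. The Olfr share outside every loop interval, 53.7%, was close to the 54.9% of all protein-coding genes. With the windows shifted by 500 kb, 10.8% of the Olfr genes were in loop-free windows, which was 0.832 percentage points above the background of that setting. The Vmn2r share outside loops was 80.2% and the Vmn1r share 62.3%.

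Several families of the placenta, liver and glands lay almost whole in loop-free windows, each in 1 cluster. Secretoglobins (Scgb), small secreted proteins that include the androgen-binding proteins of saliva, had 35 of 40 genes there (87.5%), all at chr7:31263736-34100837, from Scgb2b1, Scgb1b2, Scgb2b2, Scgb2b3 and Scgb1b3 onward. Major urinary proteins (Mup), pheromone carriers made in the liver, had 20 of 24 (83.3%) at chr4:60003481-61858043, with Mup6, Mup7, Mup2, Mup8 and Mup9 first. The prolactin family (Prl), hormones of the pituitary and placenta, was counted by symbol without Prl itself, the prolactin gene. Of the genes so counted, 20 of 25 (80.0%) lay in the single window chr13:27000001-28000000. Prl3d1, Prl3d2, Prl3d3, Prl3c1 and Prl3b1 came first among them. The window held 21 protein-coding genes, the 20 counted and Prl, so all were of the prolactin family. All Mup genes, 97.5% of Scgb genes and 88% of the Prl genes counted lay outside every loop interval.

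Pramel genes, expressed in the germ line and early embryo, had 39 of 49 members in loop-free windows (79.6%). Their largest cluster held 23 genes at chr4:143394441-144408467, beginning with Pramel1, Pramel12, Oog4, Pramel20 and Pramel21. With windows of 2 Mb the Pramel share was 6.36 percentage points below the background, the cluster's windows then being reached by a loop. The Obox group, with homeobox genes of the early embryo, had all 7 members in 2 windows at chr7:14659708-15904030, with Obox7, Obox2, Obox1, Obox3 and Obox5 first. The 4 Zscan4 genes, which mark cells in a 2-cell-like state, all lay in loop-free windows of the same run.

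Genes of proteases, detoxification and immunity were split. Kallikreins (Klk), serine proteases of glands and skin, had 16 of 26 genes (61.5%) in 1 window, with Klk14, Klk13, Klk12, Klk11 and Klk10 first. With shifted windows no Klk gene was counted, although every Klk gene lay outside all loop intervals. Sulfotransferases (Sult), which add sulfate to hormones and drugs, had 12 of 21 (57.1%), among them Sult2a5, Sult2a2, Sult2a1, Sult2a4 and Sult2a3. The Sult share was 38.1% with shifted windows and 27.3% without chromosome 7. Cathepsins (Cts), lysosomal proteases, had 10 of 23 (43.5%), including the placental Ctsj, Ctsq and Ctsr and also Cts6 and Cts8. With shifted windows the Cts share was 17.4%.

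Killer cell lectin-like receptors (Klr), receptors of natural killer cells, had 8 of 27 (29.6%), with Klra6, Klra4, Klra8, Klra9 and Klra7 first. The Klr share was 70.4% with shifted windows and 6.36 percentage points below the background with windows of 2 Mb, so it followed the position of the borders. Genes of the major histocompatibility complex (H2), many of which serve antigen presentation, had 17 of 35 (48.6%), all at chr17:34026033-35474563. H2-Ke6, H2-Oa, H2-DMa, H2-DMb2 and H2-DMb1 came first.

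Zinc finger genes stood above the background as well. The rodent genes with Zfp9xx symbols had 25 of 62 in loop-free windows (40.3%), with Zfp948, Zfp983, Zfp995, Zfp942 and Zfp943 first in the largest cluster. Other Zfp and Zscan genes had 96 of 355 (27.0%). Their largest cluster held 25 genes at chr13:65277228-67827000, beginning with Zfp369, Zfp640, Zfp712, Zfp708 and Rslcan18. In the window chr13:67000001-68000000, 23 of 27 protein-coding genes were of this group. Many such genes encode KRAB repressors of transposable elements. Predicted genes with Gm symbols had 269 of 959 (28.1%), of which 55 lay at chr14:3029918-6890560, from Gm2888, Gm2897, Gm10340, Gm5795 and Gm38690 onward. The genes with Rik symbols, 45 of 391 (11.5%), lay below the background, and no more than 4 of them fell in 1 cluster (1810055G02Rik, 9430078G10Rik, 2010003K11Rik and 1700020D05Rik).

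Genes of neuronal adhesion and signalling formed another group. The adhesion genes named here lay in windows of 1 to 4 protein-coding genes, whereas Grin1, Kcna7 and Kcnj14 lay in windows of 60 and more. Non-clustered protocadherins had 6 of 10 genes in loop-free windows (60.0%), including Pcdh17 and Pcdh20. Leucine-rich repeat neuronal adhesion genes had 7 of 17 (41.2%), each in a window of its own, among them Flrt3. Cadherins had 8 of 23 (34.8%), including Cdh7 and Cdh19, and ionotropic glutamate receptors 5 of 18 (27.8%), among them Grin1. Potassium channels (Kcn), 7 of 92 (7.61%), including Kcna7 and Kcnj14, lay below the background. So did the solute carriers (Slc), 26 of 362 (7.18%), including Slc38a10, Slc25a10 and Slc16a3.

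Genes that every cell uses had shares in loop-free windows near or below the background, although their shares outside every loop interval were above the 54.9% of all genes. Cytosolic ribosomal protein genes had 10 of 80 in loop-free windows (12.5%), with Rpl13a and Rpl18 in 1 cluster. Proteasome genes had 6 of 50 (12%), with the immunoproteasome genes Psmb9 and Psmb8 together in the H2 region. Mitochondrial ribosomal protein genes had 6 of 78 (7.69%), including Mrpl21 and Mrpl11. The shares outside loops were 75%, 70% and 65.4% in the same order.

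**Figure D4:**
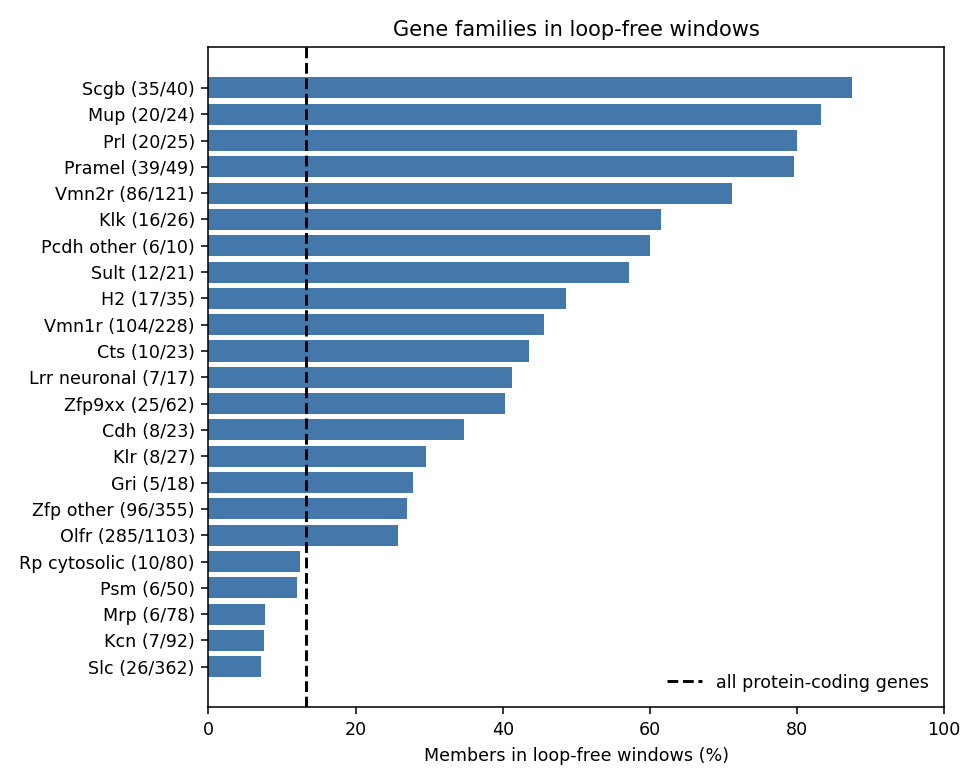
Share of protein-coding family members in loop-free windows (x axis, percent) for the 23 named families (y axis, with loop-free and all members in brackets) that had 5 or more members there and 10 or more in all; the dashed line is the share of all protein-coding genes, 13.2%. Scgb stood highest at 87.5%, and Slc lowest at 7.18%.

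Tandem clusters were not loop-free as a rule. Of 50 families with 10 or more members, 8 had more than 50% of them in loop-free windows and 18 had none there. The 8 were Scgb, Mup, Prl, Pramel, Vmn2r, Klk, Sult and the non-clustered protocadherins. Those with none included 53 keratins, 56 keratin-associated protein genes, 57 clustered protocadherins and 35 bitter taste receptors, families that also lie in tandem arrays. Histone genes had 1 of 81 there. Of 56 genes counted by symbol as cytochrome P450 family 2, 1 lay there. It was Cyp21a1, which belongs to another cytochrome P450 family. The alpha defensins differed from these: none of their 29 genes lay in a loop-free window, yet all 29 lay outside every loop interval.

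The 49 loop-free windows with 20 or more protein-coding genes held 1672 of the 2705 genes (61.8%), and they were of different kinds. In 14 a single family made up 50% or more of the genes: Olfr in 7, Vmn1r in 3, and Pramel, Prl, Zfp and Gm in 1 each. In 30 no family reached 25%. The richest, chr7:45000001-46000000, held 66 genes, among them the ribosomal protein gene Rpl13a, the apoptosis gene Bax, the hormone genes Lhb and Fgf21, and the ferritin gene Ftl1. It lay 90 kb from the nearest loop. The next, chr17:35000001-36000000, held 61, among them Tnf, H2-D1, Tubb5 and Pou5f1. Then came chr2:25000001-26000000 with 60, where a lipocalin cluster (Lcn) lay beside Grin1.

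The other 7 of the 10 richest windows were of both kinds. The 56 genes of chr7:103000001-104000000 included 49 olfactory receptors and the beta-globin genes Hbb-bt and Hbb-bs. The 49 genes of chr2:87000001-88000000 included 47 olfactory receptors. The windows chr7:30000001-31000000 (56 genes), chr7:19000001-20000000 (53, with the lipoprotein gene Apoe), chr17:34000001-35000000 (53, of which 10 H2), chr15:76000001-77000000 (52) and chr19:5000001-6000000 (51, with the NF-kB gene Rela) were mixtures in which no family reached 25%.

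Genes in sparse loop-free windows were long. In loop-free windows with under 5 protein-coding genes the median gene length was 94.0 kb (quartiles 19.7 and 350.0). In windows with loops and under 5 such genes it was 69.2 kb (20.2 and 194.0). Density within this class was not matched. The loop-free genes were 259 in 166 windows of 1 to 4 genes, and the others were 1511 in 634. In windows of 20 or more genes the order was the other way, 6.33 kb against 9.59 kb. Over all loop-free windows the median was 9.59 kb, and over all windows with loops 19.1 kb.

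The 10 longest genes with their midpoint in a loop-free window ran from 1314 to 2241 kb, so each was longer than its window. All 10 lay in windows with at most 2 protein-coding genes. Cntnap2, a neurexin-like adhesion gene, was the longest at chr6:45060061-47301393 (2241 kb). Lrp1b, a lipoprotein receptor gene, spanned 2058 kb, and Macrod2, whose product removes ADP-ribose, spanned 1998 kb. Further members were the catenin gene Ctnna3 (1574 kb), the axon guidance receptor Robo2 (1555 kb), the potassium channel partner Dpp10 (1514 kb), Gpc5 (1433 kb), Naaladl2 (1346 kb) and the netrin-G ligand gene Lrrc4c (1314 kb). Several encode cell surface proteins of neurons. Their midpoint placed them in a loop-free window, and other parts of the gene could lie in windows with loops. No loop interval reached any part of 7 of the 10, a count favoured by choosing them from loop-free windows. Over protein-coding genes of any length, 54.9% lay outside every loop interval. Cntnap2 and Ctnna3 were each reached by 1 loop.

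Of 39 genes of naive and general pluripotency, 2 lay in loop-free windows (5.13%). Pou5f1 (chr17:35506032-35510777) lay in a window whose nearest loops began 330 kb above and ended 1500 kb below. Trim28 (chr7:13024152-13031032) lay 6060 kb and 2930 kb from loops, counted from its window. The other 37 genes of the list, such as Nanog and Sox2, had their midpoints in windows with loops, although 15 of the 39 (38.5%) lay outside every loop interval.

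Genes of the 2-cell stage, which are transcribed when the embryonic genome is first activated, had 15 of 26 in loop-free windows (57.7%), and 84.6% of the list lay outside loops. The 15 were Zscan4b, Zscan4c, Zscan4d and Zscan4f, Obox1, Obox2, Obox3, Obox5 and Obox6, the deubiquitinase genes Usp17lc and Usp17ld, Pramel6 and Pramel7, Zfp352 and Tcstv3. Of these, 11 were on chromosome 7, in 4 windows. Pramel6 and Pramel7 lay within the olfactory receptor window of chromosome 2. The list largely overlaps the Zscan4, Obox and Pramel families already counted.

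Of 62 developmental transcription factor genes, 0 lay in loop-free windows. Were they independent draws, a count of 0 would allow a share of up to 4.84% (3 counts of 62). Genes of a chosen list are not such draws. The list includes Pax6, Sox17, Gata4 and Neurog2, and 8 of the 62 (12.9%) lay outside every loop interval, against 54.9% of all protein-coding genes. Of 24 genes of cohesin, CTCF and related chromatin factors, 1 lay in a loop-free window (4.17%). It was the zinc finger gene Patz1 at chr11:3289131-3309083, and its window bordered directly on a loop at 0.0 kb. Outside every loop interval lay 14 of the 24 (58.3%). Of 25 housekeeping genes, 3 lay in loop-free windows (12%), the tubulin genes Tuba1b and Tubb5 and the ribosomal protein gene Rpl13a. Of the housekeeping list, 76.0% lay outside every loop interval.

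The base composition of promoters was set beside the windows. RefSeq promoters were matched for 16457 of 20558 protein-coding genes (80.1%), and for 2245 of the 2705 in loop-free windows (83.0%). The median promoter had 6 CpG in loop-free windows and 15 in windows with loops. The ratio of observed to expected CpG, which corrects for base composition, had medians of 0.336 and 0.625. A ratio of 0.6 or more, typical of CpG islands, was found in 34.6% and 52.2%, and the median GC content was 52.7% and 57.3%.

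**Figure D5:**
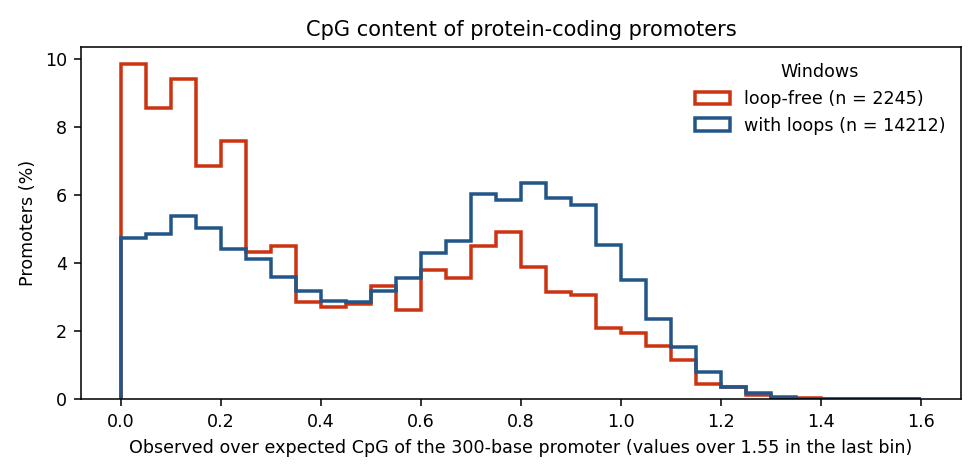
Distribution of the observed over expected CpG ratio of 300-base promoters (x axis) as percent of promoters (y axis), for loop-free windows (n = 2245) and windows with loops (n = 14212). The loop-free line is higher at low ratios, with medians of 0.336 and 0.625.

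The difference was smaller outside the families. For genes of no named family the medians were 0.64 in loop-free windows and 0.704 in windows with loops. In sparse windows, under 5 genes, they were 0.607 (206 promoters) and 0.683. In windows of 20 or more genes, which held 1362 of the loop-free promoters, they were 0.361 and 0.543. Within single families the order varied, with 0.106 for Olfr genes in both, 0.208 and 0.105 for Vmn1r genes, and 0.107 and 0.454 for cathepsins. The cytosolic ribosomal protein genes of loop-free windows had a median of 1.0. The letters TATAAA, sought between 50 and 6 bases before the start, were in 4.05% of loop-free promoters, 3.36% of the others and 3.46% of all. Among the secretoglobins of loop-free windows 12 of 29 (41.4%) held them, as in the Scgb1b2 promoter shown, and their median promoter held 0 CpG.

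A core of the CTCF motif, CCNNNAGNNGGC, sought on either strand in the 300 bases, was found in 7.13% of loop-free promoters, 10.6% of promoters in windows with loops and 10.1% of all. Among genes of no named family the shares were 11.1% and 12%. A match is a run of letters and not a bound site.

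Tandem duplication leaves near-identical copies. A promoter was called copied when 50% or more of its stretches of 25 bases also occurred in a promoter of another gene that it did not overlap. Copied promoters were 323 of 2245 (14.4%) in loop-free windows and 448 of 14212 (3.15%) in windows with loops. In loop-free windows they made up 63.9% of Vmn1r, 43.9% of Vmn2r, 55.2% of Gm, 76.9% of Mup and 48.3% of Scgb promoters. They were 0.813% of Olfr promoters and 0% of H2 and Klk promoters there. Among the promoters shown, Vmn1r124 had 100% of its stretches elsewhere, Gm2888 97.8% and Olfr883 1.1%.

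Reads from such copies are hard to place at 1 position, and how the authors treated them is not given in the sources used here. Of the loop-free windows with a promoter, 59 of 258 (22.9%) held a copied one, against 150 of 1668 (8.99%) of the windows with loops. In sparse windows copied promoters were 0.971% in loop-free windows and 0.883% in windows with loops. In windows of 20 or more genes they were 9.18% and 3.62%. The part of sequence copies in the lack of loops was not tested.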

How the data were processed

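The authors deposited 1 loop list for both samples, and its depth is unknown. Per the submitters' processing notes, Juicer 1.5.6 and the build mm10 were used. Which caller and which thresholds made the list, and if the samples were pooled first, is not stated in those sources. The deposited list has no header. Its anchor positions, in bp of mm10, were used, and the deposited peak score served in 1 alternative to rank loops. The deposited signal of the peak pixel was not used here. The meanings of these columns were inferred from the values.

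Genes came from a RefSeq table of GRCm38.p6, without strand. Of 47042 autosomal records, 333 with scaffold coordinates were left out. All records as listed gave 463 loop-free windows, 23 of them in the unsequenced first 3 Mb of a chromosome. Another 60 windows without a gene record were left out. RefSeq promoters carry strand, and none of chromosome 18 was used here. Python 3.11.15 with pandas 2.3.3 and numpy 2.4.6 did the counting, which was tested on simulated data. No test was made, since windows and genes are not replicates.

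The members and gene lists were chosen with earlier results of these data known. Named items are the 10 richest windows, the 5 longest runs (with their tie), the 5 most distant windows, families with 5 or more loop-free genes, list members and the 10 longest genes. Families with none, the windows named for 1 family, and the sequences of Vmn1r124, Scgb1b2, Pou5f1 and the microRNAs were added after their values were seen. Of each family 1 promoter is printed, with a second for Vmn1r, and some items that the rule names are not reported here.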

Additional observations from a re-analysis of the deposited data

How the results depend on the processing

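Windows 500 kb wide, windows of 2 Mb, shifted windows, fewer loops and other ways to place genes were tried in 11 alternatives, of which the use of all records as listed and the analysis without chromosome 7 were chosen after seeing the data. The median number of protein-coding genes per Mb stayed lower in loop-free windows in every one, by -4.0 to -6.0 (main value -5.0). For this, medians of 500 kb and 2 Mb windows were scaled to 1 Mb. The share of loop-free windows, 18.3%, moved by construction. It was 25.6% with 500 kb windows, 10.7% with 2 Mb, 20.5% with anchors only, 24.4% with loops of 5 and 10 kb pixels, 32.0% with loops above the median score of their pixel size, 23.9% with loops of at most 1 Mb and 14.4% of windows with a protein-coding gene. The share of protein-coding genes there, 13.2%, was 9.96% with shifted windows, 21.4% with 500 kb, 6.36% with 2 Mb, 17.1% with 5 and 10 kb pixels, 28.2% above the median score and 15.5% with loops of at most 1 Mb. The number of families with over 50% of their members there, 8, was 5 with 2 Mb, 13 with 5 and 10 kb pixels and 5 without chromosome 7. Of 164 values for 15 families, 160 stayed on the same side of the background. The exceptions, in percentage points from it, were Klk with shifted windows (-9.96), Pramel and Klr with 2 Mb (-6.36 each) and Scgb without chromosome 7 (-10.8). In these settings no member was counted, for Scgb because its loop-free genes all lie on chromosome 7, and for the others because a loop reached the redrawn windows. No paired analysis was possible because the loop list holds no value of a single sample, and leaving out replicates was not run for the same reason. The unknown depth limits which loops could be found.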

Other observations

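The antigen receptor loci, which are rearranged in lymphocytes and not in stem cells, divided by locus. Of the variable segments of the immunoglobulin heavy chain (Igh) on chromosome 12, 95 of 120 (79.2%) had their midpoint in a loop-free window, between positions 114048241 and 116009954. Of those of the kappa light chain (Igk) on chromosome 6, 91 of 102 (89.2%) did, between positions 68016742 and 70704177. None of the 114 segments of the T cell receptor alpha locus (Tra), the 22 of the beta locus (Trb), the 7 of the gamma locus (Trg) or the 5 of the delta locus (Trd) lay in a loop-free window, nor did any of the 3 of the immunoglobulin lambda locus (Igl). Over all loci, 186 of 374 variable segments (49.7%) and 103 of 153 variable segment pseudogenes (67.3%) lay in loop-free windows, against 14.5% of records of every kind. The segments of a locus are neighbours and count as 1 place in the genome each.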
